A study of Rattus norvegicus with 35 samples.

Results

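The genes described here are 9 matrix metalloproteinases, Mmp2, Mmp3, Mmp7, Mmp8, Mmp9, Mmp10, Mmp12, Mmp13 and Mmp14, together with Timp1, an inhibitor of these enzymes, measured in rat lung after instillation of carbon nanotubes. Members were chosen by name among the non-control probes, 10 of the 34766 gene names on the array, and 9 of them were among the 24468 genes bright enough to test. The choice was made with earlier results of these data known. Female Sprague Dawley rats, 12 weeks old when instillation began, were Wild Type (WT) or GMO [heterozygous for p53] (p53het here; the altered allele is not described in the labels). Rats of each genotype received vehicle (Pluronic), Mitsui-7 or NM-403 into the trachea weekly for 4 weeks. Mitsui-7 and NM-403 are both multi-walled carbon nanotubes, given at 0.25 mg/rat, and the labels do not say whether that amount is per instillation or in all. RNA of the accessory lung lobe taken 3 days after exposure was hybridised in a single colour, 1 array per rat. The p53het NM-403 group held 5 rats and the other groups 6 each, making 35 arrays. All groups had the same strain, sex and age at onset, and the control groups also went through the instillations, with vehicle.

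Matrix metalloproteinases are zinc enzymes that cut collagens, elastin, proteoglycans and many cell-surface and soluble proteins. Most are secreted as inactive precursors, are activated by the removal of a propeptide, and are held in check by the TIMP proteins, which bind the active site. In the lung they are made by macrophages, neutrophils, fibroblasts and injured epithelium and are known from emphysema, fibrosis and the clearance of inflammatory cells. The transcription factor AP-1, a dimer of Fos and Jun proteins, is a classic regulator of several of their promoters.

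Of the 10 genes, 6 lie in a cluster on rat chromosome 8, with other genes between some of them. In the RefSeq annotation of GRCr8, Mmp13, Mmp12, Mmp3, Mmp10, Mmp8 and Mmp7 occur in that order between 12782829 and 13140761. That span of 357.9 kb held 12 annotated genes, 10 of them Mmp genes. The promoters of 7 members were in the RefSeq promoter table used here (all but Mmp2, Mmp9 and Mmp14). The 120 bases before the start site used in that table are printed 5′ to 3′ for the 6 clustered genes. They are shown because these genes range from Mmp7, with the largest fitted change below, to Mmp8, which passed no test. The AP-1 word is in capitals.
Mmp13, chr8:12782709-12782828, + strand: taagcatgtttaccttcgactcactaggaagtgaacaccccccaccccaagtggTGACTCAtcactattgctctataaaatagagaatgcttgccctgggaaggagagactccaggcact
Mmp12, chr8:12866532-12866651, + strand: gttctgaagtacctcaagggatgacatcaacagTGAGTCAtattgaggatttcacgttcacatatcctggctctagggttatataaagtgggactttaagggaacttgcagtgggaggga
Mmp3, chr8:12925161-12925280, + strand: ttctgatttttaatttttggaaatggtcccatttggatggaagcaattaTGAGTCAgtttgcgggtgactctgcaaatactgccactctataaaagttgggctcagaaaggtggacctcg
Mmp10, chr8:12974587-12974706, + strand: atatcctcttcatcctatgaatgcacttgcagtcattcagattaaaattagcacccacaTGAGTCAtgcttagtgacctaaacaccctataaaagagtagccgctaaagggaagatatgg
Mmp7, chr8:13132923-13133042, + strand: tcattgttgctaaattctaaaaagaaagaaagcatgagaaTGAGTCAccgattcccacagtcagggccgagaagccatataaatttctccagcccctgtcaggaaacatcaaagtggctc
Mmp8, chr8:13008770-13008889, + strand: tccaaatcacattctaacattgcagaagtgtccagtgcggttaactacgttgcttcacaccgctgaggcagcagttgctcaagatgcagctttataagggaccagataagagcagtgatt

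The AP-1 word was searched as TGAGTCA or TGACTCA, which are each other's reverse complement, so both strands were covered. It was found within 250 bases before the start in 5 of the 7 member promoters, Mmp13, Mmp12, Mmp3, Mmp10 and Mmp7, and not in those of Mmp8 and Timp1. Its first base lay at -66 in Mmp13, -87 in Mmp12, -71 in Mmp3, -61 in Mmp10 and -80 in Mmp7. Over the 21 Mmp and Timp promoters of the table it was present in 6, the sixth being Mmp1, and over all 33469 promoters it was present in 1354, or 4.05%. The TATA word TATAAA, searched on the gene's strand, was found in the same 5 members at -47, -39, -32, -33 and -43 in the same order, and it occurs in 8.06% of all promoters. The words did not overlap. Mmp10 and Mmp7 each had a further TATA word, at -196 and -140. A match describes these exact letters only, near matches were not searched, and no binding was measured. The Timp1 promoter, not printed above, holds the near match TGAGTAA, so absence of the exact word does not show absence of an AP-1 site.

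**Figure D1:**
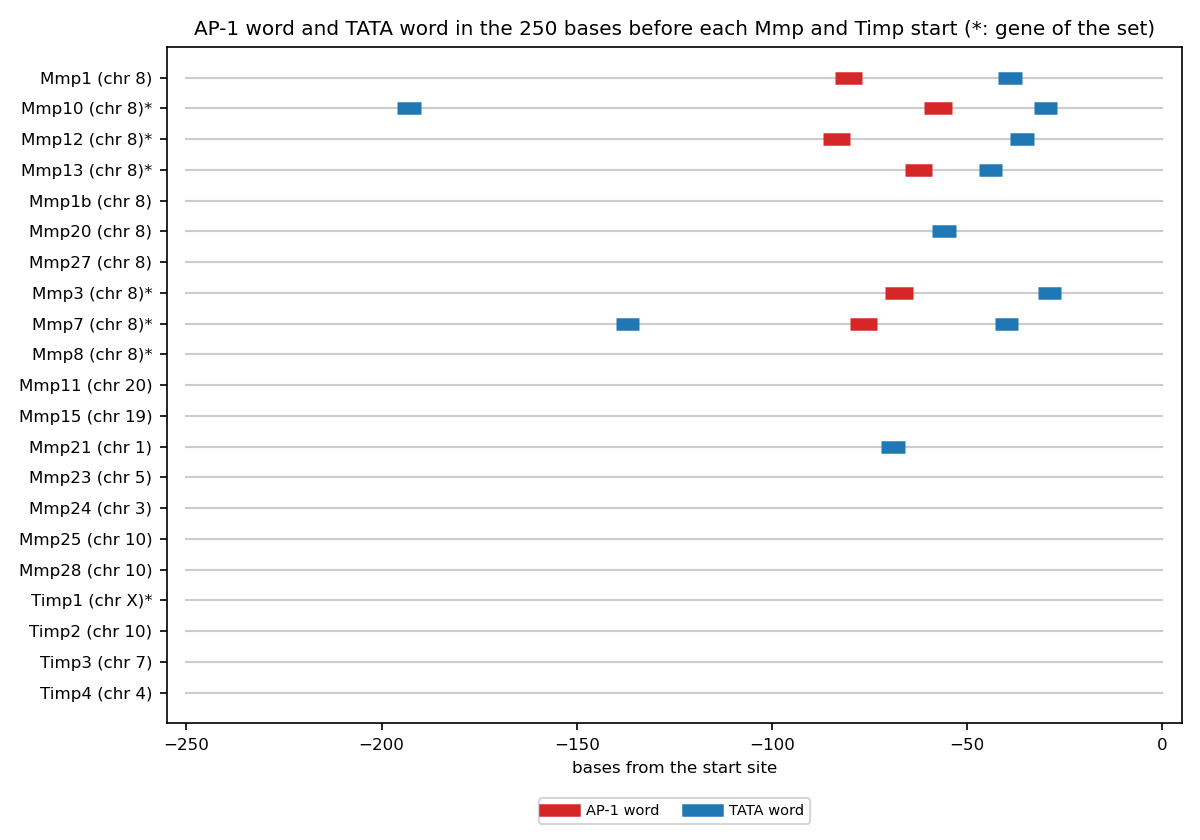
Positions of the AP-1 word (red) and the TATA word (blue) in the 250 bases before the start site of the 21 Mmp and Timp genes in the RefSeq promoter table; the x axis gives bases from the start site and a star marks a gene described here. Every AP-1 word falls with its first base between -87 and -61, in Mmp1, Mmp3, Mmp7, Mmp10, Mmp12 and Mmp13, all on chromosome 8.

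Each array carried 58717 non-control spots, and 66.1% to 86.4% of the spots were well above background, with a median of 71.5%. The array of WT Mitsui-7 replicate 5 had the 86.4%, and no other exceeded 74.6%. Levels are log2 of the processed signal minus the 75th percentile of the array, so 0 is the brightness at that percentile. They compare groups for the same probe and are not comparable between genes. The genotype of every p53het array rests on the label. The tissue label was checked against lung markers, and the surfactant genes Sftpc and Sftpb, Ager of alveolar type 1 cells, Scgb1a1 of club cells and endothelial Pecam1 were well above background on all 35 arrays. In whole tissue, fewer cells of a type and less RNA per cell cannot be told apart.

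Of the members, Mmp2, Mmp12, Mmp14 and Timp1, were well above background on all 35 arrays. Mmp9 was so on 31, Mmp7 on 29, Mmp8 on 28, Mmp13 on 20, Mmp3 on 12 and Mmp10 on 2. Mmp3 was above background only on the 12 Mitsui-7 arrays, and so entered the test only through the groups in which it was high. Mmp10 did not pass the filter, which asked for 5 arrays above background.

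Mitsui-7 raised 6 of the 9 tested members in both genotypes, namely Mmp3, Mmp7, Mmp9, Mmp12, Mmp14 and Timp1. NM-403 raised Mmp7 and Mmp12 in WT rats and Mmp12 in p53het rats. No member fell in any of the 4 comparisons. Calls are from limma, a linear model fitted to all 24468 genes, at a Benjamini-Hochberg adjusted p under 0.05. In WT rats given Mitsui-7, 8.41% of all tested genes were called higher and 5.56% lower, and in WT rats given NM-403 the shares were 2.3% and 0.899%. In p53het rats the shares were 5.29% and 6.29% for Mitsui-7, and 1.27% and 0.253% for NM-403. The median change of the 9 tested members was 1.15 on the log2 scale for Mitsui-7 in WT, beside 0.03 over all tested genes. It was 1.04 beside -0.02 for Mitsui-7 in p53het, 0.51 beside -0.00 for NM-403 in WT, and 0.33 beside -0.08 for NM-403 in p53het. Mmp3 is in these counts and medians although it had to differ to be tested, and without it Mitsui-7 raised 5 of 8 members in each genotype. Members were chosen with earlier results of these data known. Their counts and medians, here and between the nanotubes below, are therefore descriptions and no test of the family against all genes. The 2 nanotube groups of a genotype were compared with the same 6 vehicle arrays, so their changes from vehicle are not independent.

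**Figure D2:**
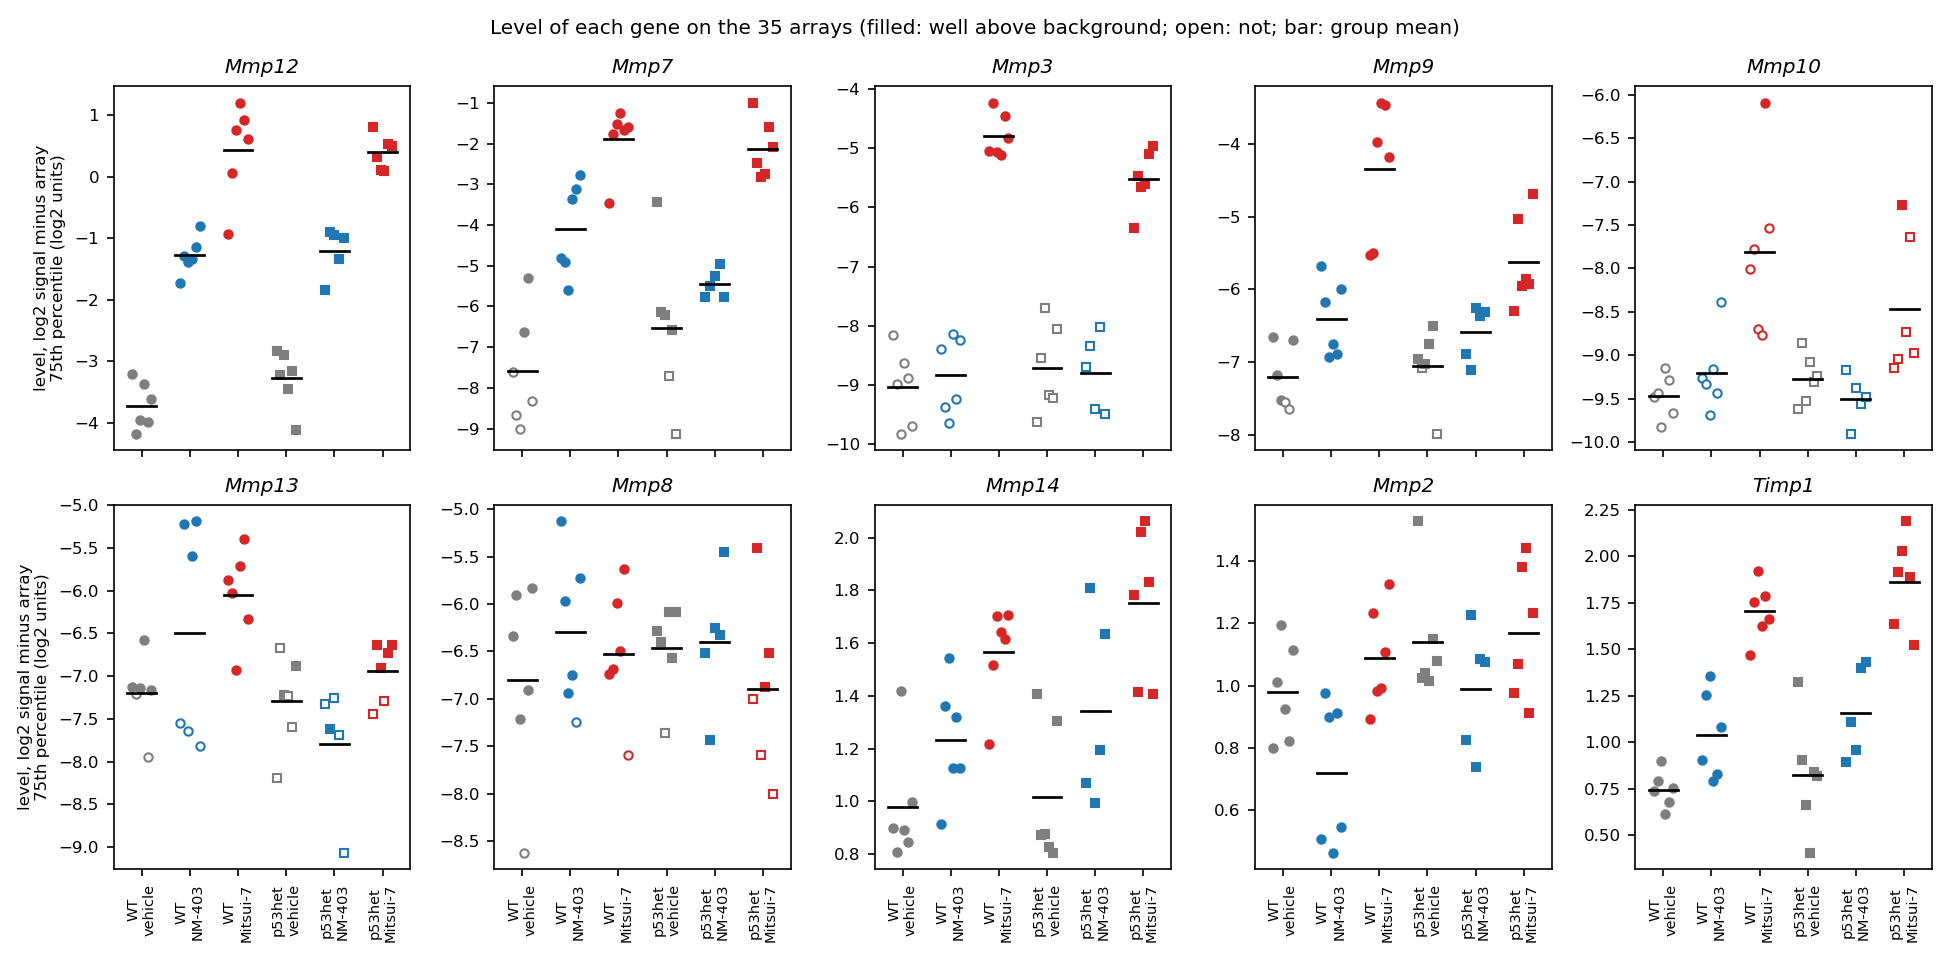
Level of each of the 10 genes on every array (y axis, log2 signal minus the array's 75th percentile) in the 6 groups; filled points are well above background, open points are not, and bars are group means. All Mmp12 points of the nanotube groups lie above all vehicle points of the same genotype, and Mmp3 is above background only on the 12 Mitsui-7 arrays.

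Mmp12, the macrophage elastase, rose in every nanotube group. In WT vehicle lungs its level ran from -4.18 to -3.21 with a median of -3.78, and in p53het vehicle lungs from -4.11 to -2.83 with a median of -3.19. With NM-403 it ran from -1.72 to -0.79 (median -1.31) in WT, and the 5 p53het values were -1.84, -0.90, -0.95, -1.33 and -1.0. Mitsui-7 arrays ran from -0.93 to 1.21 (median 0.69) in WT and from 0.10 to 0.82 (median 0.42) in p53het. Neither nanotube group overlapped its vehicle group, and in p53het rats the Mitsui-7 and NM-403 arrays did not overlap either. In WT the lowest Mitsui-7 array, at -0.93, fell inside the NM-403 range. Against vehicle, Mmp12 rose 17.8-fold with Mitsui-7 in WT (log2 change 4.16 ± 0.26, SE, limma adjusted p 5.66e-13) and 12.8-fold in p53het (3.68 ± 0.26, limma adjusted p 7.66e-12). With NM-403 the rise was 5.42-fold in WT (2.44 ± 0.26, limma adjusted p 6.30e-07) and 4.2-fold in p53het (2.07 ± 0.27, limma adjusted p 3.03e-05). The order of mean levels was WT Mitsui-7 at 0.44, p53het Mitsui-7 at 0.40, p53het NM-403 at -1.20, WT NM-403 at -1.28, p53het vehicle at -3.28 and WT vehicle at -3.72. Neighbours that share an exposure overlapped and did not pass a test of their difference, the largest being 0.44 ± 0.26 between the vehicle groups (95% interval -0.09 to 0.97). The steps between exposures passed within each genotype.

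Mmp7, or matrilysin, a small enzyme best known from epithelium, had the largest fitted change of the members with Mitsui-7 and a wide scatter. It was near background in vehicle lungs, where 2 of 6 WT and 4 of 6 p53het arrays were above it. WT vehicle levels ran from -9.01 to -5.30 (median -7.97) and p53het vehicle levels from -9.13 to -3.43 (median -6.39). With NM-403 the WT arrays ran from -5.59 to -2.78 (median -4.09), and the p53het arrays were at -5.76, -5.50, -5.26, -4.97 and -5.77. With Mitsui-7 they ran from -3.47 to -1.26 (median -1.64) in WT and from -2.83 to -0.99 (median -2.29) in p53het. Mitsui-7 arrays of both genotypes lay above all their vehicle arrays, and WT NM-403 overlapped WT vehicle by its lowest array. The 5 p53het NM-403 arrays lay inside the p53het vehicle range. The fitted rise of Mmp7, against vehicle groups measured above background on those 2 and 4 arrays, was 52.3-fold with Mitsui-7 in WT (log2 change 5.71 ± 0.66, limma adjusted p 1.68e-07) and 21.2-fold in p53het (4.41 ± 0.66, limma adjusted p 2.16e-05). With NM-403 it rose 11.3-fold in WT (3.50 ± 0.66, limma adjusted p 0.00142). In p53het the NM-403 difference was 1.08 ± 0.69 (95% interval -0.33 to 2.49, limma adjusted p 0.573). That value was 1.70 without p53het vehicle replicate 1, the array at -3.43, and still did not pass (limma adjusted p 0.169). By mean level the order was WT Mitsui-7 at -1.88, p53het Mitsui-7 at -2.12, WT NM-403 at -4.09, p53het NM-403 at -5.45, p53het vehicle at -6.53 and WT vehicle at -7.59. Every neighbouring pair overlapped. Because these signals are low, the size depends on the background correction. With normexp and an offset the Mitsui-7 changes were 2.72 in WT and 2.04 in p53het, and the WT NM-403 change was 1.17. All 3 stayed called.

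Mmp3, stromelysin 1, which cuts proteoglycans and activates other precursors of the family, was detected only after Mitsui-7. Its level ran from -5.12 to -4.23 (median -4.94) on the WT Mitsui-7 arrays and from -6.35 to -4.96 (median -5.53) on the p53het Mitsui-7 arrays. The remaining groups lay between -9.83 and -7.70 with no array well above background. In scanner units the median signal was 47.4 in WT Mitsui-7 and 31.5 in p53het Mitsui-7, against 2.46 to 3.15 in the other groups. The Mitsui-7 arrays overlapped no other group of their genotype. Against the lowest signal counted as above background, Mmp3 was at least 5.96-fold higher with Mitsui-7 than with vehicle in WT and at least 3.26-fold higher in p53het. Its p-values are not given, because the filter admitted Mmp3 only through the Mitsui-7 arrays. For such bounds the dim group is set, array by array, at the dimmest signal well above background or at the probe's own signal, whichever is higher. With normexp and an offset the fitted change was 0.98 in WT and 0.56 in p53het. A second Mmp3 probe, which shares no more than 8 bases in a row with the first, was above background on 1 array, WT Mitsui-7 replicate 5. With the mean of both probes the change was 2.80 in WT and 1.87 in p53het. NM-403 left both probes below background in both genotypes.

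Mmp10, stromelysin 2, separated from Mmp3 by Mmp1 in the cluster, was well above background on WT Mitsui-7 replicate 5 and p53het Mitsui-7 replicate 3. Its mean level was -7.81 in WT Mitsui-7 and -8.47 in p53het Mitsui-7, and between -9.50 and -9.21 in the other groups. The bound for the dim groups was above the Mitsui-7 means, so no fold is given. The Mitsui-7 points of WT all lay above the WT vehicle points, while those of p53het overlapped vehicle.

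Mmp9, gelatinase B, an enzyme carried in neutrophil granules and made by macrophages, rose with Mitsui-7. In WT vehicle lungs it ran from -7.65 to -6.66 (median -7.35), with 4 of 6 arrays above background. WT NM-403 levels ran from -6.93 to -5.67 (median -6.46), and WT Mitsui-7 levels from -5.52 to -3.43 (median -4.08). The WT Mitsui-7 arrays split into 2 at -5.52 and -5.50 and 4 between -4.18 and -3.43, and all 6 were above every other WT array. In p53het rats vehicle ran from -7.99 to -6.50 (median -7.0), NM-403 arrays were at -6.89, -7.11, -6.25, -6.37 and -6.31, and Mitsui-7 ran from -6.29 to -4.68 (median -5.89). The p53het Mitsui-7 arrays lay above vehicle and overlapped NM-403 at their lower end. Mmp9 rose 7.28-fold with Mitsui-7 in WT (log2 change 2.86 ± 0.34, limma adjusted p 2.83e-07) and 2.69-fold in p53het (1.43 ± 0.34, limma adjusted p 0.00466). The order of mean levels was WT Mitsui-7 at -4.34, p53het Mitsui-7 at -5.62, WT NM-403 at -6.40, p53het NM-403 at -6.59, p53het vehicle at -7.05 and WT vehicle at -7.21, and each overlapped its neighbours. With normexp and an offset the WT change was 1.09 and still called, and the p53het change was 0.34 and no longer called (limma adjusted p 0.343). With NM-403 the differences of 0.81 ± 0.34 in WT (limma adjusted p 0.231) and 0.47 ± 0.36 in p53het (limma adjusted p 0.656) did not pass.

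Mmp2, gelatinase A, the constitutive enzyme of mesenchymal cells, was bright in every group and passed in no comparison with vehicle. Its means were 0.98 in WT vehicle, 0.72 in WT NM-403, 1.09 in WT Mitsui-7, 1.14 in p53het vehicle, 0.99 in p53het NM-403 and 1.17 in p53het Mitsui-7. In each genotype the 3 exposure groups overlapped each other. With Mitsui-7 the difference was 0.11 ± 0.12 in WT (95% interval -0.13 to 0.35) and 0.03 ± 0.12 in p53het (-0.21 to 0.27), intervals that end well short of the changes of Mmp9. With NM-403 it was -0.26 ± 0.12 in WT (limma adjusted p 0.271) and -0.15 ± 0.12 in p53het (limma adjusted p 0.682).

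Mmp13 and Mmp8, collagenases that cleave fibrillar collagen, the latter stored in neutrophils, were dim and variable. Mmp13 was above background on 4 of 6 WT vehicle arrays, 3 WT NM-403, 6 WT Mitsui-7, 2 p53het vehicle, 1 p53het NM-403 and 4 p53het Mitsui-7 arrays. Its WT Mitsui-7 levels ran from -6.93 to -5.39 (median -5.95) against -7.94 to -6.58 (median -7.15) with vehicle. These ranges overlapped, and the difference of 1.15 ± 0.40 narrowly missed the threshold (limma adjusted p 0.0518). The WT NM-403 arrays fell into 3 between -5.59 and -5.19 and 3 between -7.82 and -7.55, the latter below background. In p53het the Mitsui-7 difference was 0.36 ± 0.40 (limma adjusted p 0.650). Mmp8 means lay between -6.90 and -6.29 in all groups, every pair of groups overlapped, and its differences from vehicle, from -0.44 to 0.51 with an SE of 0.44 to 0.46, did not pass. The spread of Mmp8 limits what can be seen, as its 95% interval for Mitsui-7 in WT, -0.63 to 1.18, still held a rise of 1 log2 unit.

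Mmp14, the membrane-anchored enzyme that activates the Mmp2 precursor at the cell surface, rose modestly with Mitsui-7. WT vehicle ran from 0.81 to 1.42 (median 0.90), WT NM-403 from 0.92 to 1.54 (median 1.22) and WT Mitsui-7 from 1.22 to 1.71 (median 1.63). In p53het, vehicle ran from 0.81 to 1.41 (median 0.87), NM-403 arrays were at 1.07, 1.81, 1.0, 1.2 and 1.63, and Mitsui-7 ran from 1.41 to 2.06 (median 1.81). WT vehicle and Mitsui-7 overlapped through vehicle replicate 3, at 1.42, while in p53het the lowest Mitsui-7 array sat just above the highest vehicle array. The rise was 1.5-fold in WT (log2 change 0.59 ± 0.15, limma adjusted p 0.00681) and 1.67-fold in p53het (0.74 ± 0.15, limma adjusted p 0.00100). With NM-403 the differences of 0.26 ± 0.15 in WT (limma adjusted p 0.462) and 0.33 ± 0.16 in p53het (limma adjusted p 0.408) did not pass. Mean levels fell in the order p53het Mitsui-7 (1.75), WT Mitsui-7 (1.57), p53het NM-403 (1.34), WT NM-403 (1.23), p53het vehicle (1.02) and WT vehicle (0.98), and each group overlapped the next. The 2 Mmp14 probes share 50 of their bases in a row, so the second adds little evidence of its own.

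Timp1, the secreted inhibitor that binds most active enzymes of the family, approximately doubled with Mitsui-7. Its WT vehicle levels ran from 0.61 to 0.90 (median 0.74), WT NM-403 from 0.79 to 1.36 (median 0.99) and WT Mitsui-7 from 1.47 to 1.92 (median 1.71). For p53het, vehicle ran from 0.41 to 1.32 (median 0.83), NM-403 arrays were at 0.89, 1.11, 0.96, 1.40 and 1.43, and Mitsui-7 ran from 1.52 to 2.19 (median 1.90). In both genotypes every Mitsui-7 array was above every vehicle and NM-403 array. Timp1 rose 1.94-fold in WT (log2 change 0.96 ± 0.13, limma adjusted p 2.97e-06) and 2.05-fold in p53het (1.04 ± 0.13, limma adjusted p 1.14e-06). Mean levels were 1.86 in p53het Mitsui-7, 1.70 in WT Mitsui-7, 1.16 in p53het NM-403, 1.04 in WT NM-403, 0.83 in p53het vehicle and 0.75 in WT vehicle, and the only neighbours that did not overlap were WT Mitsui-7 and p53het NM-403. NM-403 differences were 0.29 ± 0.13 in WT (95% interval 0.03 to 0.56, limma adjusted p 0.269) and 0.33 ± 0.14 in p53het (0.05 to 0.61, limma adjusted p 0.298).

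**Figure D3:**
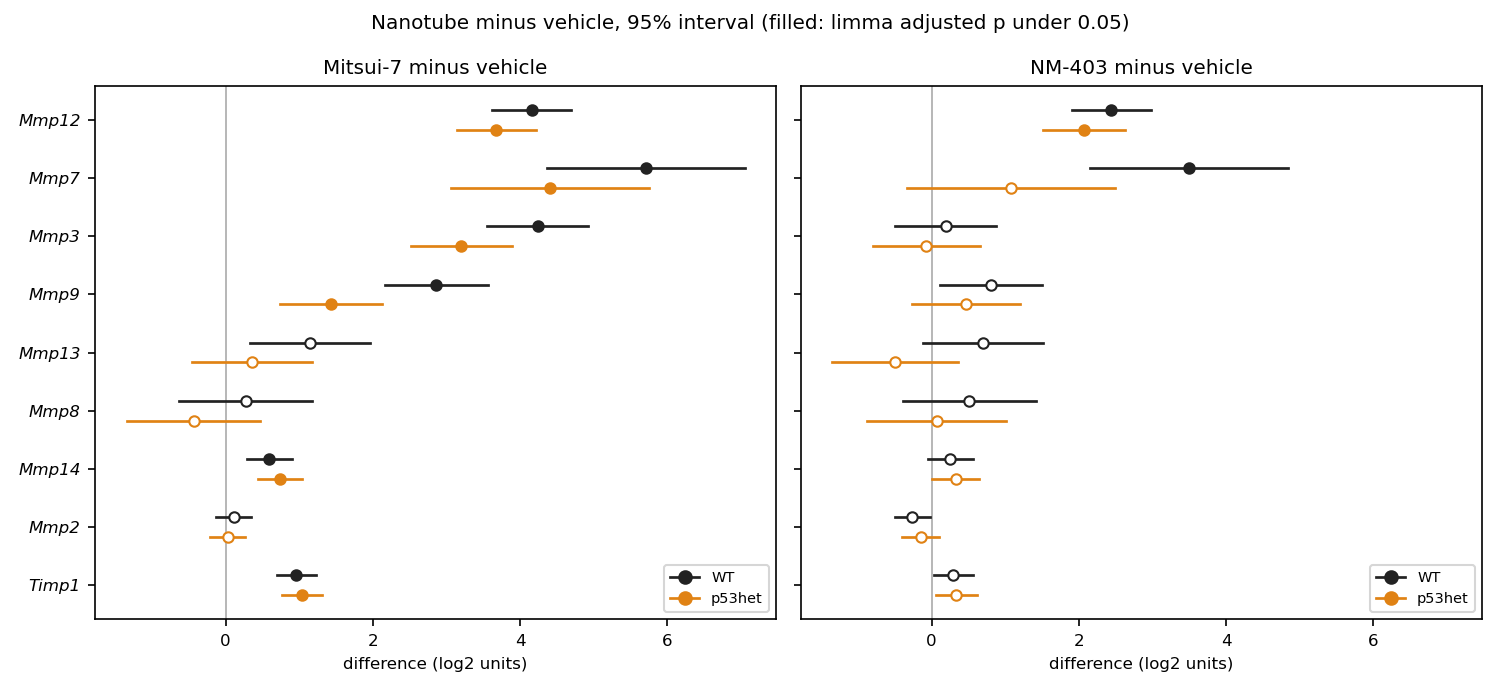
Fitted difference from vehicle (x axis, log2 units, with 95% intervals) of the 9 tested genes for Mitsui-7 (left) and NM-403 (right) in WT (black) and p53het rats (orange); filled points passed at a limma adjusted p under 0.05. Mitsui-7 has 6 filled points in each genotype, while NM-403 has Mmp12 in both genotypes and Mmp7 in WT.

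Arrays lay on 5 slides, and the differences held within them. With Mitsui-7, each of the 6 called genes was higher than vehicle on 4 of 4 slides that held both groups in WT and on 5 of 5 in p53het. Mmp12 within-slide differences were 3.27 to 4.57 in WT and 3.32 to 4.11 in p53het. For Mmp9 they were 1.16 to 4.12 in WT and 1.11 to 1.53 in p53het. With NM-403, Mmp12 was higher on 5 of 5 slides in WT (1.64 to 2.81) and 4 of 4 in p53het (1.60 to 2.52), and Mmp7 on 5 of 5 in WT (1.82 to 5.55). WT Mitsui-7 replicate 5 was the array with the most spots above background. Without it, Mmp7 (5.67), Mmp9 (2.69), Mmp12 (4.06), Mmp14 (0.58) and Timp1 (0.94) stayed called in WT. Mmp3, which had to differ to be tested, was at 4.17.

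The direct comparison of the nanotubes at the same labelled dose and day had Mitsui-7 above NM-403 for 4 of the 9 tested members in each genotype. Mmp3, Mmp12 and Timp1 were called in both, Mmp9 in WT and Mmp7 in p53het, and none was lower. Over all tested genes, 2.78% were called higher and 0.552% lower with Mitsui-7 than with NM-403 in WT, and 1.09% and 0.278% in p53het. The members' median difference was 0.67 in WT beside 0.02 over all genes, and 0.85 beside 0.03 in p53het. Mmp12 was 3.29-fold higher with Mitsui-7 in WT (log2 difference 1.72 ± 0.26, limma adjusted p 6.18e-05) and 3.05-fold in p53het (1.61 ± 0.27, limma adjusted p 0.000513). Timp1 was 1.59-fold higher in WT (0.67 ± 0.13, limma adjusted p 0.00158) and 1.63-fold in p53het (0.71 ± 0.14, limma adjusted p 0.00241). Mmp3 was at least 4.98-fold higher in WT and at least 3.69-fold in p53het. As with vehicle, Mmp3 had to differ to be tested, and without it 3 of 8 members were called in each genotype.

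Between the nanotubes, Mmp9 differed by 2.06 ± 0.34 in WT, a 4.17-fold excess with Mitsui-7 (limma adjusted p 0.000211). The p53het difference of 0.96 ± 0.36 did not pass (limma adjusted p 0.244). Mmp7 gave 3.33 ± 0.69 in p53het, a 10-fold excess (limma adjusted p 0.00553), and 2.21 ± 0.66 in WT, which narrowly missed (limma adjusted p 0.0591). That WT value of Mmp7 was 2.53 and passed without WT Mitsui-7 replicate 1, the lowest array of its group (limma adjusted p 0.0299). Mmp14 differed by 0.33 ± 0.15 in WT (limma adjusted p 0.297) and 0.41 ± 0.16 in p53het (limma adjusted p 0.262). When slide entered the model as a fixed term, Mmp14 passed in both genotypes, at 0.42 (limma adjusted p 0.00506) and 0.53 (limma adjusted p 0.00170), and Mmp2 passed in WT at 0.39 (limma adjusted p 0.0156). With normexp and an offset the Mmp3 differences were 0.80 in both genotypes. The Mmp9 difference in WT was then 0.79 and that of Mmp7 in p53het was 2.12, and both stayed called.

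**Figure D4:**
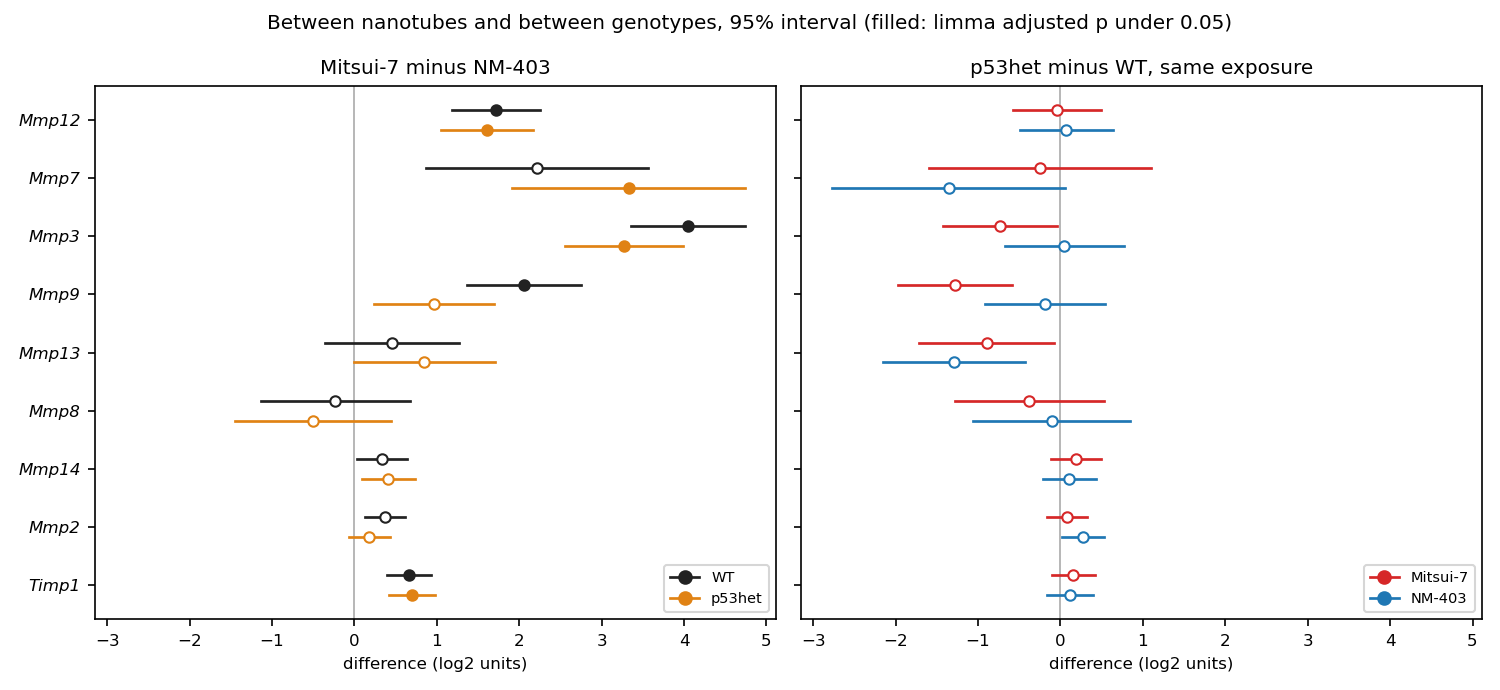
Fitted differences (x axis, log2 units, with 95% intervals) of the 9 tested genes between Mitsui-7 and NM-403 in each genotype (left) and between p53het and WT rats under the same nanotube (right); filled points passed at a limma adjusted p under 0.05. Filled points are Mmp3, Mmp12 and Timp1 in both genotypes, Mmp9 in WT and Mmp7 in p53het, and the right panel has none.

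No member was called between rats labelled p53het and WT. In vehicle lungs 0% of all genes were called, under NM-403 0%, and under Mitsui-7 0.00817%, which is 2 genes. The genotype by exposure interactions called 0% for Mitsui-7 and 0% for NM-403. At an unadjusted p under 0.05, limma gave 0 members in vehicle lungs, 3 under Mitsui-7, 2 under NM-403 and 2 in each interaction, beside 483, 1287, 1039, 729 and 413 genes of all tested. The largest difference by p was that of Mmp9 under Mitsui-7, -1.28 ± 0.34 in p53het relative to WT (95% interval -1.97 to -0.58, limma adjusted p 0.317). Over all alternatives run, that value ranged from -1.51 to -0.61 with limma adjusted p from 0.104 to 0.968. Individual arrays overlapped, since the WT arrays at -5.52 and -5.50 lay inside the p53het range of -6.29 to -4.68. The matching interaction was -1.43 ± 0.48 (limma adjusted p 1.00).

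Other genotype values were also within the multiple-testing limit. Under Mitsui-7, Mmp3 was -0.73 ± 0.34 and Mmp13 -0.90 ± 0.40 in p53het relative to WT (limma adjusted p 0.906 and 0.872). Under NM-403, Mmp13 was -1.29 ± 0.42 and Mmp7 -1.36 ± 0.69 (limma adjusted p 0.741 for both). Mmp7 passed against vehicle with NM-403 in WT and not in p53het, but the interaction of -2.42 ± 0.96 did not pass (95% interval -4.37 to -0.47, limma adjusted p 0.983). For Mmp12 the genotype difference was -0.04 under Mitsui-7 (95% interval -0.57 to 0.50) and 0.07 under NM-403 (-0.49 to 0.63). For Timp1 it was 0.16 (-0.11 to 0.42) and 0.12 (-0.16 to 0.40).

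Members moved together across arrays to different degrees. The following correlations are descriptions over 35 arrays, which share the exposure groups, the scaling and the slides, and each is given again after subtraction of the group means. Mmp7 and Mmp12 had a Pearson r of 0.91 and 0.60 within groups. Mmp14 and Timp1 had 0.85 and 0.62, and Mmp2 and Mmp14, enzyme and activator, had 0.50 and 0.67. Mmp9 and Mmp12 had 0.81 and 0.55. By contrast Mmp12 and Timp1 had 0.84 over all arrays and 0.12 within groups, and Mmp3 and Mmp9 had 0.77 and 0.00. The Mmp3 values at background outside the Mitsui-7 groups enter those figures.

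**Figure D5:**
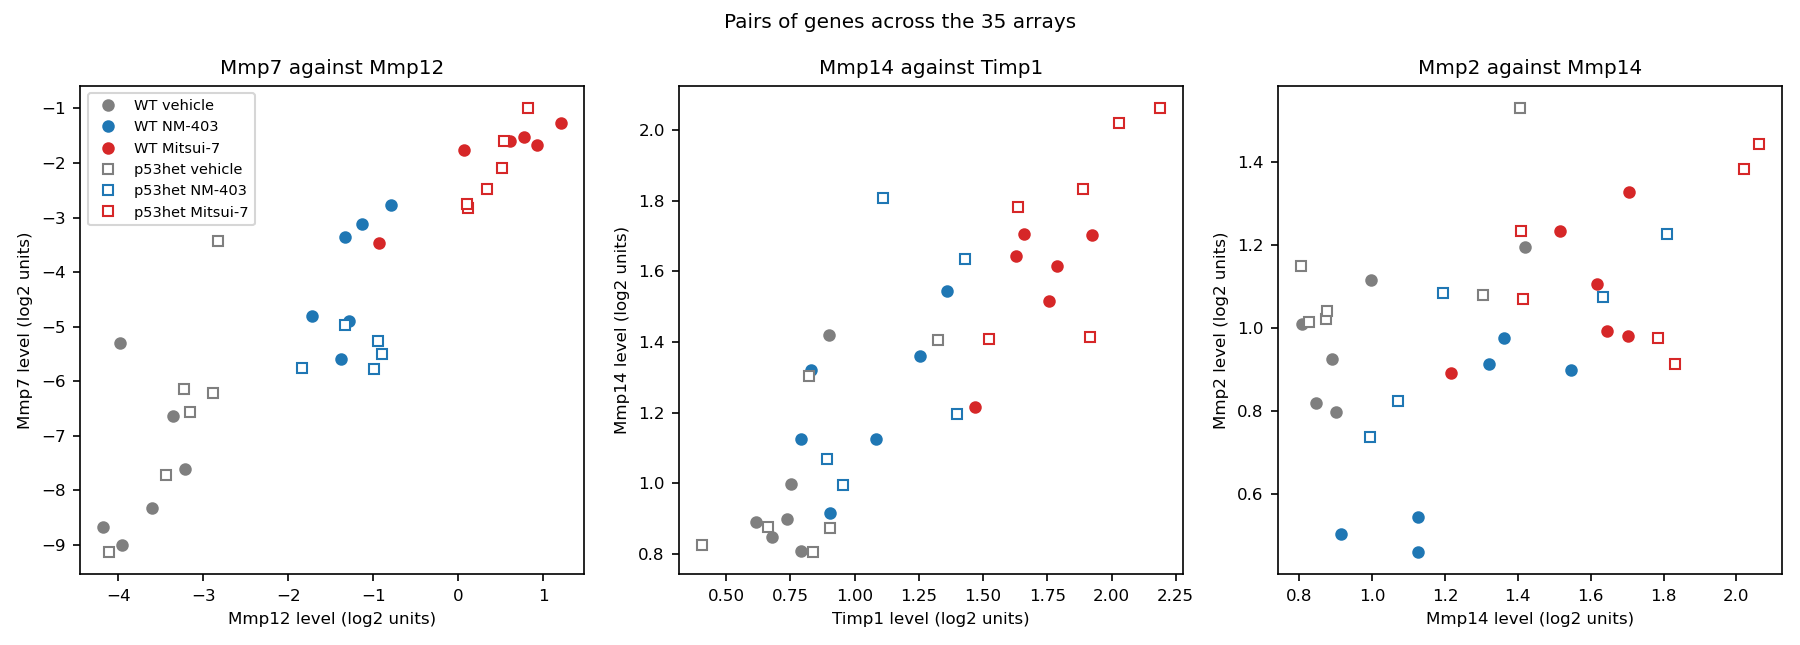
Levels (log2 units) of Mmp7 against Mmp12, Mmp14 against Timp1 and Mmp2 against Mmp14, with 1 point per array, filled circles for WT and open squares for p53het, in grey for vehicle, blue for NM-403 and red for Mitsui-7. Mmp7 and Mmp12 rise together over all arrays (r 0.91), while Mmp2 and Mmp14 vary together within groups (r 0.67) more than over all arrays (r 0.50).

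Among 15238 genes with a symbol, the 3 whose level over the 35 arrays correlated most with each of 5 members are given by r, then by r within groups. For Mmp12 they were Slamf9, a leukocyte surface receptor (0.97, 0.75), Spp1, the secreted phosphoprotein osteopontin (0.96, 0.45), and Il1rn, the interleukin-1 receptor antagonist (0.96, 0.46). For Mmp7 they were Slamf9 (0.89, 0.44), A2m (0.89, 0.47) and Lilrb4, an inhibitory receptor of myeloid cells (0.89, 0.48). For Mmp9 they were Cst7, the leukocyte cystatin F (0.92, 0.70), the keratin Krt75 (0.91, 0.68) and Il4i1, a secreted amino acid oxidase (0.91, 0.58). The genes most like Mmp14 were Prdx5, a peroxiredoxin (0.92, 0.85), Fuca1, a lysosomal fucosidase (0.92, 0.83), and Fxyd2, a sodium pump subunit (0.90, 0.75). Those most like Timp1 were the cytokine Il24 (0.93, 0.70), the potassium channel Kcnn4 (0.93, 0.64) and the aquaporin Aqp3 (0.92, 0.60). These are likenesses of level over the same arrays and were not tested.

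Of 13 other matrix metalloproteinases listed, 9 were tested and none rose. With Mitsui-7 in WT, Mmp24 was lower by -0.69 ± 0.13 (limma adjusted p 0.000202) and Mmp16 by -0.55 ± 0.12 (limma adjusted p 0.00186), both membrane-type enzymes. With NM-403 in WT, Mmp24 was lower (-0.55 ± 0.13, limma adjusted p 0.00842). In p53het, Mmp16 was lower with Mitsui-7 (-0.57 ± 0.12, limma adjusted p 0.00174), and with NM-403 none of the 9 passed. The median change of these 9 genes was -0.26 with Mitsui-7 in WT, beside the 0.03 over all genes, and 0.03 with Mitsui-7 in p53het, beside -0.02.

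Among 7 other inhibitors of metalloproteinases, 5 were tested. A2m, the broad protease trap alpha-2-macroglobulin, rose by 3.37 ± 0.26 with Mitsui-7 in WT (limma adjusted p 5.70e-11) and by 3.17 ± 0.26 in p53het (limma adjusted p 3.07e-10). It rose by 1.24 ± 0.26 with NM-403 in WT (limma adjusted p 0.00463), and the p53het value of 0.86 ± 0.28 did not pass (limma adjusted p 0.124). Reck, a membrane-anchored inhibitor, was lower with Mitsui-7 in WT (-0.51 ± 0.15, limma adjusted p 0.0176) and p53het (-0.72 ± 0.15, limma adjusted p 0.00105). Timp3, the matrix-bound TIMP, was lower in WT (-0.35 ± 0.11, limma adjusted p 0.0235), and its p53het value of -0.27 ± 0.11 did not pass (limma adjusted p 0.0945).

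The plasminogen system, which generates the plasmin that can activate metalloproteinase precursors, had 8 of 10 genes tested. With Mitsui-7, 4 rose in WT and 3 in p53het, with NM-403 2 rose in WT and 0 in p53het, and none fell. Plau, the urokinase, rose by 0.97 ± 0.13 in WT (limma adjusted p 4.23e-06) and 0.99 ± 0.13 in p53het (limma adjusted p 4.66e-06) with Mitsui-7, against 0.17 and 0.02 with NM-403. Serpine2, the protease nexin, rose by 0.99 in WT and 1.22 in p53het with Mitsui-7 and by 0.78 with NM-403 in WT. Plaur, the urokinase receptor, rose in WT with Mitsui-7 (0.77 ± 0.25, limma adjusted p 0.0370).

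Other proteases and their inhibitors were mixed. Among 10 of 12 elastase, cathepsin and inhibitor genes tested, 6 rose with Mitsui-7 in each genotype and 2 with NM-403 in WT. Ctsk, the collagen- and elastin-cutting cathepsin K, rose by 2.89 ± 0.27 in WT (limma adjusted p 3.58e-09) and 3.02 ± 0.27 in p53het (limma adjusted p 2.09e-09) with Mitsui-7, and by 1.08 ± 0.27 with NM-403 in WT (limma adjusted p 0.0222). Slpi, a secreted elastase inhibitor, rose by 1.14 and 1.02 with Mitsui-7, and Prtn3, neutrophil proteinase 3, by 0.99 and 0.97. Serpina1, the antitrypsin gene, was lower in p53het with Mitsui-7 (-1.13 ± 0.30, limma adjusted p 0.0125) and with NM-403 (-1.27 ± 0.32, limma adjusted p 0.0310). Of 17 ADAM and ADAMTS genes tested, 3 rose with Mitsui-7 in WT, namely Adam12, Adamts4 and Adam8, and 2 in p53het, Adam12 and Adam19. With NM-403, 0 rose in either genotype. The shares of all tested genes higher with Mitsui-7 were 8.41% in WT and 5.29% in p53het, and counts this small do not set the list apart. Adam12 rose by 0.96 ± 0.13 in WT (limma adjusted p 4.28e-06) and 0.55 ± 0.13 in p53het (limma adjusted p 0.00586).

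Matrix proteins that these enzymes cut were represented by 18 tested genes of 19. With Mitsui-7, 6 rose in WT and 5 in p53het. Spp1, also a substrate of several members, rose by 6.27 ± 0.30 and 6.57 ± 0.30 with Mitsui-7 and by 4.11 ± 0.30 and 4.15 ± 0.31 with NM-403, in WT and p53het respectively, and was the only one of the list called with NM-403. Fibronectin, Fn1, rose by 1.18 ± 0.11 in WT and 1.09 ± 0.11 in p53het with Mitsui-7, against -0.07 and 0.04 with NM-403. Versican, Vcan, rose by 1.07 and 0.96 with Mitsui-7. The collagen chain Col1a1 rose by 0.85 in WT (limma adjusted p 0.0354), and its p53het value of 0.79 did not pass (limma adjusted p 0.0571). Among 11 genes that bind, clear or induce metalloproteinases was Thbs2, thrombospondin 2, which binds Mmp2 for its clearance. With Mitsui-7, Thbs2 rose by 2.27 ± 0.21 in WT and 2.16 ± 0.21 in p53het. Lcn2, the lipocalin that forms a complex with Mmp9, rose with NM-403, by 1.52 ± 0.28 in WT (limma adjusted p 0.00124) and 1.60 ± 0.30 in p53het (limma adjusted p 0.00186), and its Mitsui-7 values of 0.19 and 0.59 did not pass. Cd44, a docking receptor for Mmp9, rose by 0.44 and 0.51 with Mitsui-7. Cav1 was lower in all 4 comparisons, by -0.47, -0.48, -0.63 and -0.44.

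Of 16 AP-1, ETS and related factors tested, 1 rose and 1 fell with Mitsui-7 in WT, and 2 rose and 2 fell in p53het. Over all tested genes 8.41% rose and 5.56% fell in WT, and 5.29% and 6.29% in p53het. Counts this small do not set the list apart from all genes. Fosl1, the Fra-1 subunit of AP-1, rose by 1.98 ± 0.44 with Mitsui-7 in WT (limma adjusted p 0.00182) and 2.26 ± 0.44 in p53het (limma adjusted p 0.000599). Fosl2 rose by 0.43 ± 0.12 in p53het (limma adjusted p 0.0143). Jun was lower in p53het (-0.40 ± 0.13, limma adjusted p 0.0475), and Rela, an NF-kappaB subunit, was lower in WT (-0.30 ± 0.10, limma adjusted p 0.0314) and p53het (-0.35 ± 0.10, limma adjusted p 0.0146), all with Mitsui-7. With NM-403 0 of the 16 passed, Fosl1 being at 1.11 ± 0.44 in WT (limma adjusted p 0.190). Of 10 tested cytokines and growth factors that induce members, Tgfb1 rose with Mitsui-7 by 0.68 ± 0.11 in WT and 0.52 ± 0.11 in p53het, Areg by 1.25 ± 0.25 in p53het, and Csf2 in WT (-0.32) and Il33 in p53het (-0.40) were lower.

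Markers of several cell types moved in the same groups. Of 10 monocyte and recruited macrophage markers, 8 rose with Mitsui-7 in WT, 6 in p53het, 3 with NM-403 in WT and 1 in p53het, and all 10 were well above background on 35 arrays. Their summed linear level ran from 6.38 to 7.51 in WT vehicle, 8.20 to 13.4 in WT NM-403 and 10.6 to 20.2 in WT Mitsui-7, and from 6.65 to 10.2, 9.51 to 12.4 and 10.2 to 17.2 in the p53het groups in that order. In p53het rats the sums with NM-403 overlapped those with vehicle and with Mitsui-7, while the Mmp12 levels of these groups did not overlap. The part of these markers in the changes of Mmp12 was not tested. Of 8 alveolar macrophage markers, 3 rose and 1 fell with Mitsui-7 in WT, with sums of 10.8 to 14.4 against 10.5 to 12.3 in vehicle.

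Neutrophil markers moved differently from most members. Of 10 tested among 12, 4 rose with NM-403 in WT and 2 in p53het, and 1 and 0 rose with Mitsui-7. Their sum was 9.26 to 24.3 in WT NM-403, 3.22 to 8.42 in WT vehicle and 2.24 to 4.99 in WT Mitsui-7, and Elane was above background on 0 arrays. That sum is set by the brighter genes of the list. Its mean log2 level overlapped, at -3.05 to -2.01 in WT NM-403 and -3.83 to -2.95 in WT vehicle. Mmp9 and Mmp8, both carried by neutrophils, were not called with NM-403 in either genotype. With NM-403, Mmp9 was 0.81 ± 0.34 above vehicle in WT and 0.47 ± 0.36 in p53het. The part of neutrophils in the levels of either gene was not tested. Fibroblast markers summed to 28.4 to 37.1 in WT Mitsui-7 and 23.4 to 27.9 in WT vehicle, with 3 of 10 higher and 2 lower. This sum too is set by its brighter genes. The mean log2 level of the list overlapped, at -0.75 to -0.50 in WT Mitsui-7 and -1.03 to -0.67 in WT vehicle. The part of fibroblasts in the changes of Mmp14, Mmp3 and Timp1 was not tested. Mucous cell markers summed to 2.21 to 3.81 in WT Mitsui-7, 0.606 to 0.923 in WT NM-403 and 0.397 to 0.706 in WT vehicle, with 4 of 5 tested higher with Mitsui-7. Of 6 basal and injured epithelium markers tested, Krt14, Krt17 and Cldn4 were higher with Mitsui-7 in each genotype, Krt17 being above background on 12 arrays. The sum of that list, set by its brighter genes, was 5.6 to 6.36 in WT Mitsui-7 and 4.99 to 7.85 in WT vehicle, and so was not higher. The part of either list in the changes of Mmp7 was not tested.

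Other lists also moved with Mitsui-7. Of 8 mast cell markers, 4 rose and 1 fell in WT, and 5 rose and 1 fell in p53het, while the sum was 2.38 to 3.56 in WT Mitsui-7 and 2.39 to 3.96 in WT vehicle. Of 7 endothelial markers, 5 were lower in each genotype, with sums of 20.5 to 30.8 in WT Mitsui-7 and 37.9 to 44.9 in WT vehicle. Of 7 alveolar type 1 markers, 4 were lower in each genotype, with sums of 125.9 to 138.9 and 149.02 to 168.98 in the same order. The part of these lists in the changes of the members was not tested.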

How the data were processed

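The authors' scanner output held 1-colour intensity values per spot, which the submitters' processing notes credit to Agilent Feature Extraction version 12.0.1.1. The deposited processed signal (intensity, background-subtracted per the file headers) was taken as log2 after removal of 4259 control spots and of 221 to 699 outlier spots per array, and each array's 75th percentile was subtracted. Spots of a probe were averaged, and a gene was its brightest probe, retained where 5 or more arrays had it well above background and every group had 3 or more values, which left 24468 genes. All 6 groups entered 1 fit in limma 3.58.1 (R 4.3.3), with a mean per group, 11 comparisons and Benjamini-Hochberg adjustment over all genes, tested on simulated data. Arrays are single rats per the labels, so n is animals. Array number limits the precision.

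The authors' deposited table of log2 values, centred on each probe's median (row medians 0, column medians -0.08 to 0.07), holds 11555 probes. Of these, 11545 matched the scanner files, where its between-array differences correlated at 0.995 to 0.999. It has Mmp2, Mmp12, Mmp14 and Timp1 and served as an alternative. Labels give the same replicate numbers to different groups. Deviations from group means of same-numbered arrays correlated at 0.03 on average over 85 pairs (-0.57 to 0.69), so the numbers pair nothing; arrays of the same slide correlated at 0.22 over 106 pairs. Promoter sequences came from RefSeq (GRCr8). Members and gene lists were chosen with earlier results of these data known. All 10 members are named; from each pathway list, at most 4 genes called in a comparison with vehicle are named, by size; and the 3 most alike genes for 5 members. Some genes that this rule names are not reported here.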

Additional observations from a re-analysis of the deposited data

Results flagged for a closer look

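In 54 groups of 5 or 6 arrays (9 genes in 6 groups), 4 had an array standing apart from the rest of its group by Dixon's test at the 95% level, where chance gives about 1 in 20. Mmp2 was highest on p53het vehicle replicate 1, at 1.53. Mmp7 was lowest in WT Mitsui-7 on replicate 1, at -3.47, and that array was also the lowest of its group for Mmp12 (-0.93), Mmp9 (-5.52), Mmp14 (1.22) and Timp1 (1.47), which makes 5 of the 6 called genes. Mmp13 was lowest in p53het NM-403 on replicate 5, at -9.06, where it was below background. Mmp14 was highest in WT vehicle on replicate 3, at 1.42. None of the 18 genotype by exposure interactions of the members passed.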

How the results depend on the processing

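Over 14 alternatives and leaving out each array in turn, no called member changed direction. Members called, leaving out 1 replicate at a time, numbered 6 to 7 for Mitsui-7 and 2 for NM-403 against vehicle in WT, 6 and 1 in p53het, 4 to 5 and 4 for Mitsui-7 against NM-403 in WT and p53het, and 0 for every genotype and interaction comparison. The replicate block left the counts at 6, 2, 6, 1, 4, 4 and 0. Mmp3, which had to differ to be tested, is in the counts of Mitsui-7 against vehicle and against NM-403. The authors' values hold 4 of the members, so their counts were 3, 1, 3, 2 and 2 where the main ones were 6, 2, 6, 4 and 4. Array weights added Timp1 with NM-403 in p53het (2 called), and slide as a random block added Mmp2, Mmp7 and Mmp14 between the nanotubes in WT (7 called). Lost calls were Mmp9 with Mitsui-7 in p53het under normexp, and Timp1 between the nanotubes in p53het when only those groups were fitted (limma adjusted p 0.0574). Mmp13 with Mitsui-7 in WT passed under 6 settings: the stricter filter, slide as a random block, array weights, only the groups compared, without WT vehicle replicate 4 (1.27) and without WT Mitsui-7 replicate 3 (1.33). Timp1 with NM-403 in WT passed with slide as a fixed block (0.31, limma adjusted p 0.0462), and Mmp10, dim on nearly all arrays, was called with no filter for Mitsui-7 in WT. Calls over all genes rose with slide as a fixed block, from 3418 to 5430 for Mitsui-7 and 783 to 1892 for NM-403 in WT. Low signal limits Mmp3, Mmp8, Mmp10 and Mmp13.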
